A study of Rattus norvegicus with 6 samples.

Results

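The genes described here are 10 genes of Wnt signaling and of the colonic crypt, Lgr5, Smoc2, Axin2, Ephb2, Ephb3, Sox9, Ascl2, Lrig1, Rnf43 and Prom1, read in the enterocyte nuclei of rat colon. They were chosen by name and were all present among the 17388 genes of the enterocyte tables. Single nuclei RNA sequencing counts came from 3 treatments with 3 libraries each, and nuclei that the study annotated as enterocytes and as T cells were available. All rats were wild type. Sham rats drank water only. Placebo rats received 5% dextran sulfate sodium (DSS), a chemical that injures the colonic epithelium, in the drinking water for 3 days, then plain water for 5 days, with vehicle capsules given by gavage 2 times a day over 4 days. PL8177 rats had the same DSS course with capsules of 50 µg PL8177, an agonist of the melanocortin-1 receptor. Placebo and PL8177 rats therefore shared DSS and gavage, and differences from sham carry both. The library tags were GR12, GR13 and GR15 in sham, GR22, GR23 and GR24 in placebo, and GR41, GR43 and GR44 in PL8177. They were read as rats, which the labels do not list. P-values of the treatment comparisons therefore rest on the spread between these libraries.

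The colonic epithelium is renewed from stem cells at the base of the crypts. Wnt ligands and R-spondins from the surrounding stroma keep those cells dividing, and cells lose Wnt signaling and gain absorptive genes as they move toward the surface. In this system Lgr5 is an R-spondin receptor that marks the stem cells, Ascl2 is a transcription factor of the stem cell program, and Smoc2 and Lrig1 mark cells near the crypt base. Axin2 and Rnf43 are Wnt targets that feed back on the pathway, Axin2 in the complex that degrades beta-catenin and Rnf43 as a ligase that removes Frizzled receptors. Ephb2 and Ephb3 are receptors that place cells along the crypt, Sox9 is a transcription factor of the lower crypt, and Prom1 is a membrane glycoprotein of apical protrusions that in rodents is found well beyond the stem cells.

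Axin2 is a textbook direct target of Wnt signaling, so the stretch of its promoter that holds the letters of TCF/LEF sites is shown. Promoters were taken from RefSeq on build GRCr8, while the counts were made on another build (Rnor 6.0), and no position is carried between them. The window ran from 250 bases before to 50 bases after the start of the gene and was searched on both strands for CTTTGAA and CTTTGAT, whose reverse complements are TTCAAAG and ATCAAAG. The stretch lies at chr10:94398535-94398684 on the plus strand, and capitals mark the matches, which begin 232 and 132 bases before the start.
Axin2: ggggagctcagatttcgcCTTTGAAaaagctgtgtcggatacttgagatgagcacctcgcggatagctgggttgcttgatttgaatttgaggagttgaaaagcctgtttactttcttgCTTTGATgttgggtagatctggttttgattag
At least 1 match was present in 2921 of 33469 promoters (8.73%). Promoters were found for 7 of the 10 genes, and Axin2 alone among those 7 held a match. Ascl2, Lrig1, Ephb2, Rnf43, Ephb3 and Prom1, which has 2 entries, held none in this window.

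The enterocyte tables held 8782 nuclei with a median of 1085 UMIs (unique molecular identifiers, each counting 1 captured transcript). Library totals ran from 319125 to 4123319 UMIs and library medians from 437 to 2331 UMIs per nucleus, so any share of nuclei with a UMI depends on depth. In 8 cases a barcode occurred in 2 libraries. Surface enterocyte genes were abundant, with 232 UMIs per 10000 over a list of 15. Within the T cell tables, the 685 nuclei of placebo library GR23 went against their label. They held 205 UMIs per 10000 of the surface list and 2.05 of the T cell list, against 30.3 and 46.6 in the 333 T cell nuclei of the other libraries, and they were left out wherever T cell nuclei are used below.

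The members differed widely in how much data stood behind them. Prom1 had 21854 UMIs in 3975 nuclei (45.3%) and up to 155 UMIs in 1 nucleus. Rnf43 had 2622 UMIs in 1732 nuclei, Ephb2 1397 in 994 and Axin2 647 in 539. Lrig1 (219 UMIs), Ephb3 (131), Sox9 (109) and Smoc2 (74) were sparse, and the stem cell marker Lgr5 gave 30 UMIs in 30 nuclei. Ascl2 gave 1 UMI in GR22 and 1 in GR43 and none in the other 7 libraries. The other 9 members had UMIs in every library. Among 6781 nuclei thinned to 500 UMIs each, 59.0% held no member, 36.9% held 1 and 3.88% held 2.

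**Figure D1:**
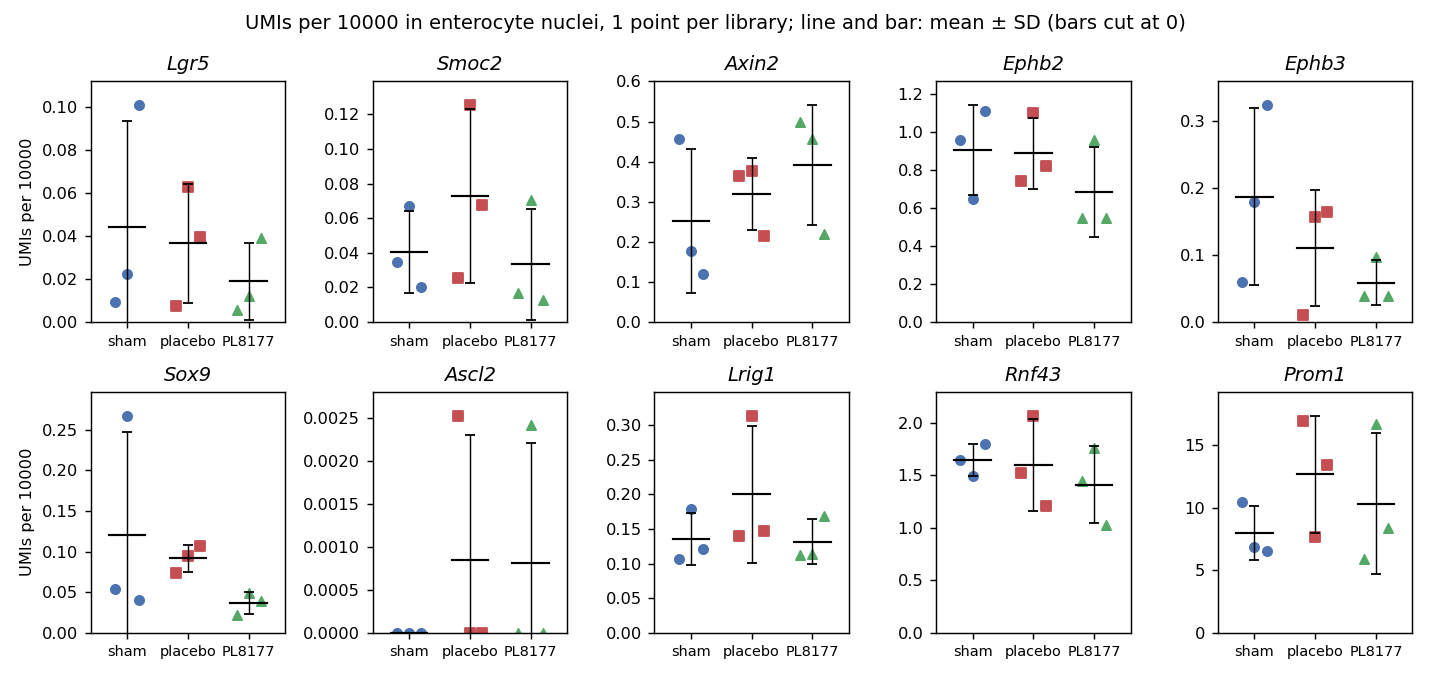
Level of each member, in UMIs per 10000 UMIs of the library (y axis, from 0), in the 3 libraries (points) of sham, placebo and PL8177, with the mean and SD of each treatment as line and bar. Ranges overlap between treatments in every panel except Sox9, where the PL8177 libraries (0.0224 to 0.0485) lie below the placebo libraries (0.0734 to 0.107). These Sox9 points rest on 3 to 29 UMIs each.

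Levels are given as UMIs per 10000 UMIs of a library, and since counts from the 3′ end carry no length correction, they are compared within a gene only. For the stem cell genes, Lgr5 stood at 0.00943, 0.0223 and 0.101 per 10000 in the sham libraries, at 0.00759, 0.0627 and 0.0396 in the placebo libraries and at 0.00559, 0.0121 and 0.0390 in the PL8177 libraries (in the order of the tags above, as throughout). Each of these rests on a few UMIs, and a count of 0 would have allowed up to 0.0940 per 10000 in the shallowest library. Smoc2, which encodes a secreted matrix protein, had 0.0346, 0.0668 and 0.0202 in the sham libraries, 0.0253, 0.125 and 0.0678 in the placebo libraries and 0.0168, 0.0703 and 0.0130 in the PL8177 libraries. Lrig1, a negative regulator of ErbB receptors, had 0.107, 0.178 and 0.121 in the sham libraries, 0.139, 0.313 and 0.147 in the placebo libraries and 0.112, 0.114 and 0.169 in the PL8177 libraries. In all 3 genes the treatments overlapped, and the high placebo value of Smoc2 and of Lrig1 came from GR23, the library with the fewest nuclei (304). A further 685 nuclei of GR23 with surface genes lie in the T cell tables and are not counted here. They held 0.0513 of Smoc2 and 0.193 of Lrig1 per 10000, and no placebo level was computed with them added.

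Of the feedback genes, Axin2 varied 4.11-fold and Rnf43 2.02-fold between the lowest and the highest library. Axin2 levels were 0.456, 0.178 and 0.121 in the sham libraries, 0.364, 0.376 and 0.215 in the placebo libraries and 0.498, 0.456 and 0.221 in the PL8177 libraries. Rnf43 levels were 1.64, 1.49 and 1.80 in the sham libraries, 1.52, 2.07 and 1.21 in the placebo libraries and 1.44, 1.76 and 1.03 in the PL8177 libraries. The sham mean of Rnf43 was 1.64 ± 0.152, the placebo mean 1.60 ± 0.435 and the PL8177 mean 1.41 ± 0.367 (SD, n = 3), and the spread within a treatment exceeded the distance between these means in placebo and PL8177.

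Of the positioning genes, Ephb2 had 0.955, 0.646 and 1.11 in the sham libraries, 0.744, 1.10 and 0.820 in the placebo libraries and 0.548, 0.958 and 0.546 in the PL8177 libraries. Ephb3 had 0.0597, 0.178 and 0.323 in the sham libraries, 0.0101, 0.157 and 0.164 in the placebo libraries and 0.0392, 0.0970 and 0.0390 in the PL8177 libraries. Both genes overlapped between all treatments. Sox9 had 0.0534, 0.267 and 0.0404 in the sham libraries, 0.0734, 0.0940 and 0.107 in the placebo libraries and 0.0224, 0.0485 and 0.0390 in the PL8177 libraries. Every PL8177 library was below every placebo library for Sox9. That was so for 1 of the 8 members with at least 50 UMIs and for 14.0% of the 9989 genes with that many. Above placebo in every PL8177 library were 0 of the 8 members and 4.62% of these genes. Sham and placebo libraries were apart for 0 of the 8 members (5.23% of these genes higher in sham, 14.4% lower). PL8177 and sham libraries were also apart for 0 of 8 (6.12% of these genes higher in PL8177, 5.69% lower). The T cell list (11 genes) was ordered likewise, with 0.392 to 0.846 per 10000 in placebo and 0.143 to 0.359 in PL8177, most of it from Bcl11b, which has UMIs in every library, while the T cell receptor genes Cd3e, Cd3d and Cd3g were at 0 in at least 2 of the 3 libraries of each of these treatments except Cd3g in placebo. Its part in the Sox9 values was not tested.

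Prom1 levels were 10.5, 6.86 and 6.58 in the sham libraries, 16.9, 7.65 and 13.5 in the placebo libraries and 5.89, 16.7 and 8.42 in the PL8177 libraries. The means were 7.96 ± 2.16, 12.7 ± 4.69 and 10.3 ± 5.65 (SD, n = 3). The PL8177 libraries alone spanned nearly the whole range of the 9 libraries, and the treatments overlapped.

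No member passed the test in any treatment comparison. With edgeR's quasi-likelihood test on library sums, at a Benjamini-Hochberg adjusted p under 0.05 and an absolute log2 fold change over 0.5, 0 of the 8 members that passed the filter on low counts were called between sham and placebo, where 0 of 9424 genes (0.0%) were called. The other two comparisons, PL8177 with placebo and PL8177 with sham, likewise gave 0 of 9424 genes (0.0%). At an unadjusted p under 0.05 edgeR marked 12.4%, 9.24% and 6.59% of genes in these comparisons and no member. DESeq2 called 107, 63 and 4 genes (1.14%, 0.669% and 0.0424%) and no member, although it gave no adjusted p for Smoc2, Ephb3, Sox9 and Lrig1 against placebo. The low-count filter removed Lgr5 and Ascl2. Without it Lgr5 was at 0.42 (SE 1.05, unadjusted p = 0.708) in sham and -0.64 (SE 1.06, unadjusted p = 0.552) in PL8177, each against placebo, and Ascl2, with 2 UMIs, was not called either. Both comparisons with placebo share the placebo libraries.

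**Figure D2:**
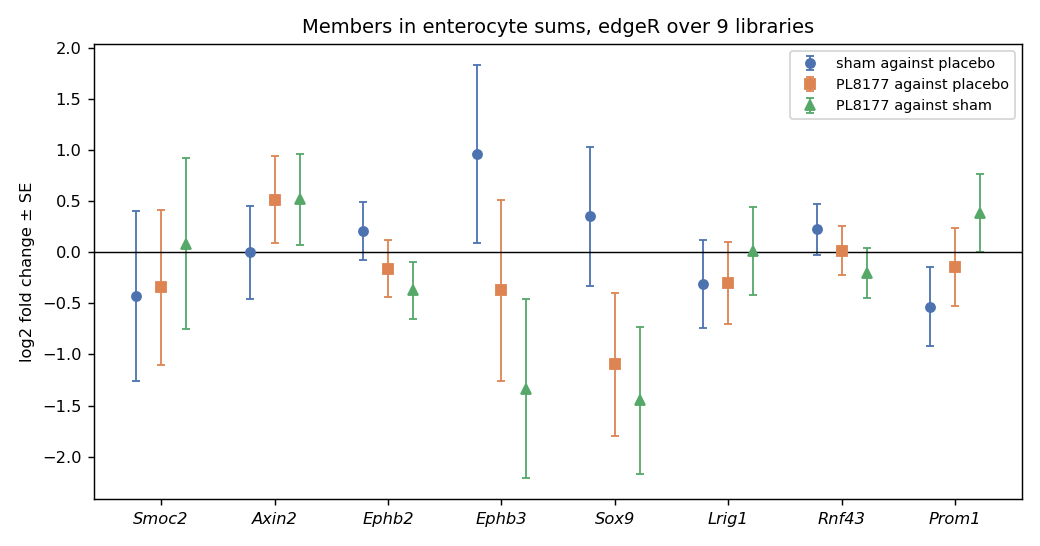
Log2 fold change (y axis) of the 8 testable members between treatments in the edgeR fit over 9 libraries, with bars of 1 standard error. Values run from -1.45 (Sox9, PL8177 against sham) to 0.96 (Ephb3, sham against placebo), and no member passed the adjusted test.

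The width of the intervals differed by gene. For Rnf43 the log2 fold change was 0.22 (SE 0.25) for sham and 0.02 (SE 0.24) for PL8177, each against placebo, and for PL8177 an interval of 1.96 SE ran from -0.46 to 0.49. For Ephb2 the values were 0.21 (SE 0.28) and -0.16 (SE 0.28), the latter with an interval from -0.71 to 0.38. Thinned to 300 UMIs, the sham value of Ephb2 was -0.82 (edgeR adjusted p = 0.233), of opposite sign, while the adjusted p over the alternatives ran from 0.233 to 0.953. For Prom1 the values were -0.53 (SE 0.38, edgeR adjusted p = 0.580) and -0.15 (SE 0.38), and the interval for sham ran from -1.28 to 0.22.

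For Axin2 the log2 fold change was -0.00053 (SE 0.45) in sham and 0.52 (SE 0.43) in PL8177, each relative to placebo, the latter with an interval from -0.32 to 1.35. The sham value came from unlike libraries, since it was -0.87 without GR12. The sparse members were hardly constrained. Ephb3 had 0.96 (SE 0.87) and -0.37 (SE 0.88), Smoc2 -0.43 (SE 0.83) and -0.34 (SE 0.76), and Lrig1 -0.31 (SE 0.43) and -0.30 (SE 0.40). Sox9 in sham stood at 0.35 (SE 0.68), which was -0.77 without GR13, and in PL8177 at -1.10 (SE 0.70, edgeR adjusted p = 0.671). For PL8177 against sham, Sox9 had -1.45 (SE 0.72, unadjusted p = 0.0705, edgeR adjusted p = 0.754) and Ephb3 -1.34 (SE 0.88).

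Other genes of the pathway were counted by lists. With edgeR no gene of these lists was called in a treatment comparison, and 3 of them, Jag1, Bcl9l and Areg, were called under an alternative given below. Of the Wnt receptors and co-receptors, 6 of 7 were tested, with a median log2 fold change relative to placebo of 0.43 in sham and 0.09 in PL8177, beside medians over all genes of -0.02 and -0.01. The 2 with the smallest p were the co-receptors Lrp5, at 0.55 and 0.78, and Lrp6, at 0.51 and 0.54. Genes of the beta-catenin destruction complex (9 of 11 tested) had medians of 0.36 and 0.32, with the ubiquitin ligase component Btrc at 0.88 for sham, the tankyrase Tnks at 0.45 and 0.49, and the kinase Csnk1a1 at 0.56 for PL8177. Genes of Wnt transcription (5 of 7 tested) had medians of 0.21 and 0.56. Bcl9l, a beta-catenin cofactor, stood at 0.97 for sham and 1.24 for PL8177 (edgeR adjusted p = 0.243 and 0.266, and 0.0490 for PL8177 with DESeq2), the cofactor Pygo2 at 0.21 for sham and Bcl9 at 0.72 for PL8177. None of the 12 further feedback genes passed the filter on low counts, and of 10 Wnt ligands and R-spondins only Wnt11 did.

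Further crypt genes (7 of 16 tested) had medians of 0.08 and -0.08. Slc12a2, a chloride cotransporter of the lower crypt, stood at -0.49 and -0.86, Hopx at 1.01 for sham and Ets2 at 0.39 for PL8177. Ephrins and other Eph receptors (5 of 8 tested) had medians of 0.08 and 0.10, with the ligand Efna1 at -0.68 and -0.52, Efnb2 at -0.38 for sham and the receptor Epha2 at 1.01 for PL8177. Notch genes (6 of 8 tested) had medians of -0.63 and -0.41, with the ligand Jag1 at -1.71 and -1.13 (edgeR adjusted p = 0.150 and 0.366), Hes1 at 0.90 for sham and Rbpj at -0.38 for PL8177. Genes of epithelial regeneration (4 of 9 tested) had medians of 0.31 and 0.92, with the growth factors Areg at 1.50 for PL8177 (edgeR adjusted p = 0.270) and Ereg at 0.52 and 1.19, and Anxa1 at 0.67 for sham. These values did not pass the threshold with edgeR. DESeq2 called Jag1 lower in sham (-1.71, adjusted p = 0.0235) and called Bcl9l (1.23, adjusted p = 0.0490) and Areg (1.50, adjusted p = 0.0401) higher in PL8177, each against placebo. Jag1 was also called by edgeR without a filter on low counts (adjusted p = 0.0444). Over the alternatives run the adjusted p ranged from 0.0235 to 0.462 for Jag1, from 0.0490 to 0.750 for Bcl9l and from 0.0401 to 0.671 for Areg. The surface enterocyte list, summed, took 243 to 391 UMIs per 10000 in the sham libraries, 152 to 240 in the placebo libraries and 198 to 260 in the PL8177 libraries, and its part in the values above was not tested.

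Detection per nucleus was compared after thinning each nucleus to 300 UMIs, which kept 8220 of 8782 nuclei. As counted, Ephb2 was seen in 20.5%, 3.39% and 6.78% of sham nuclei, 15.6%, 9.87% and 9.48% of placebo nuclei, and 7.97%, 16.0% and 4.68% of PL8177 nuclei, and the deepest library of each treatment had the highest share. After thinning, the sham libraries had 3.13%, 1.47% and 2.30%, the placebo libraries 4.44%, 5.19% and 4.38%, and the PL8177 libraries 2.53%, 4.17% and 1.76%. Sham and PL8177 libraries both lay below the placebo libraries (exact two-sided permutation p = 0.1 each, the smallest that 3 against 3 libraries allow). Of the 6202 genes with at least 50 UMIs after thinning, 15.8% were lower in this way in sham and 10.4% in PL8177, while 6.45% and 5.89% were higher. It did not hold for the share expected over all thinnings, where sham had 3.98%, 1.65% and 3.14%, placebo 3.98%, 5.07% and 4.10%, and PL8177 2.73%, 4.77% and 2.08%.

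**Figure D3:**
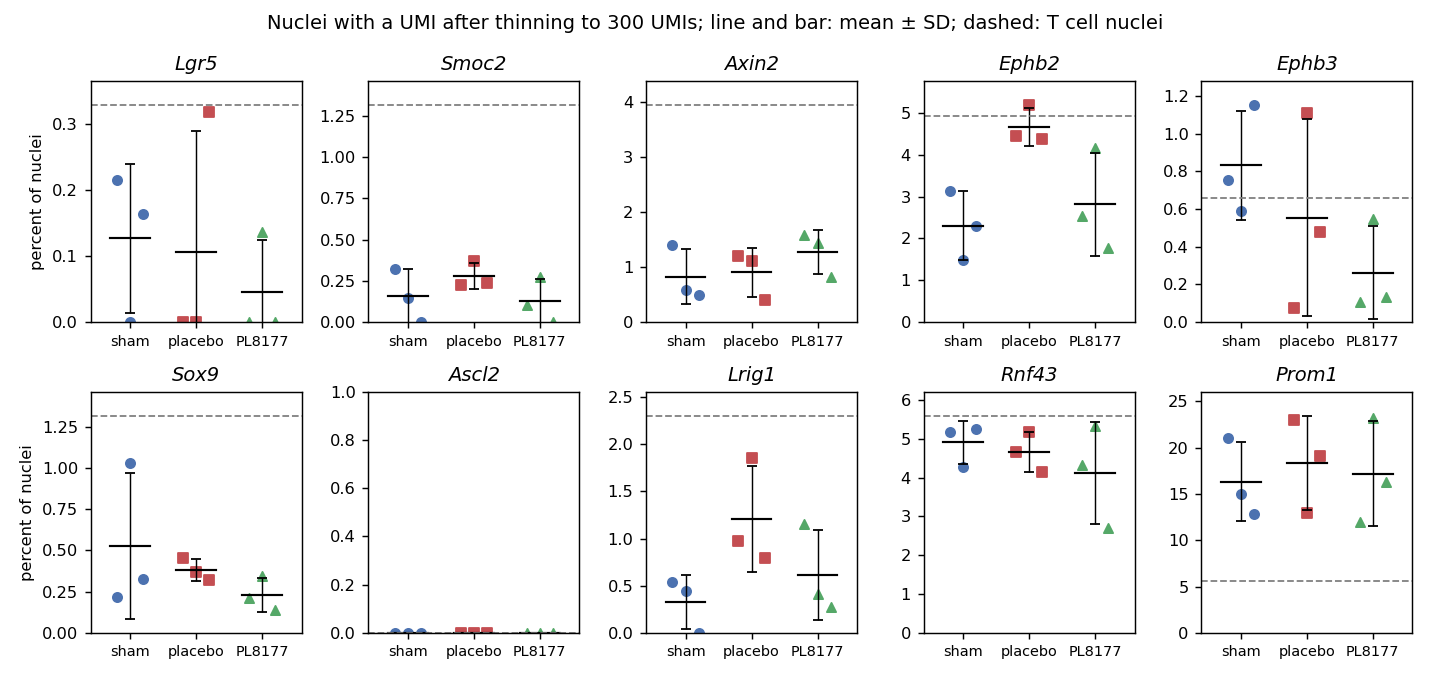
Share of nuclei with at least 1 UMI of each member after thinning every nucleus to 300 UMIs (percent, y axis from 0), by library (points) and treatment (line and bar, mean and SD), with the share in T cell nuclei without GR23 as a dashed line. Prom1 is the only member whose enterocyte libraries (12.0% to 23.2%) all lie above the T cell share of 5.59%.

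Lrig1 after thinning was seen in 0.540%, 0.442% and 0% of sham nuclei and 0.978%, 1.85% and 0.796% of placebo nuclei, so that sham lay below placebo (exact permutation p = 0.1). The PL8177 libraries had 1.16%, 0.410% and 0.271% and overlapped both. Neither Lrig1 nor Ephb2 kept sham apart from placebo when nuclei were thinned to 500 UMIs or not thinned. The value of 0 was 0 of 608 nuclei, for which the exact interval reaches 0.605%. Of the 10 members, 5 had at least 50 UMIs after thinning, and the other 3 of these 5, Axin2, Rnf43 and Prom1, overlapped between the treatments. Between PL8177 and sham 0 of the 5 were apart in the drawn shares, against 7.85% of genes with that many UMIs higher and 4.48% lower in PL8177. For Prom1, sham had 21.1%, 15.0% and 12.8%, placebo 23.0%, 13.0% and 19.1%, and PL8177 12.0%, 23.2% and 16.3%. The placebo shares leave out the GR23 nuclei with surface genes in the T cell tables. After thinning, 25.3% of those held Prom1, 2.46% Ephb2 and 0.307% Lrig1, against 13.0%, 5.19% and 1.85% of the GR23 enterocyte nuclei. No comparison of treatments was run with them added.

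Free RNA gives UMIs in nuclei that do not express a gene, so the same shares were taken in T cell nuclei, a cell type outside the epithelium. Of these nuclei without GR23, 71.8% held a UMI of the general epithelial list and 78.1% a UMI of the T cell list. Ephb2 stood at 2.24 per 10000 in them, against at most 1.11 in an enterocyte library. Whether T cells express some members themselves was not tested, so these shares cannot be read as a measure of free RNA alone. In 304 thinned T cell nuclei without GR23 (median depth before thinning 753 UMIs, against 1085 in enterocytes) Prom1 was seen in 5.59%, against 18.6% of enterocyte nuclei. Prom1 was thus detected above this level. Rnf43 was at 5.59% in T cell and 4.57% in enterocyte nuclei, Ephb2 at 4.93% and 3.39%, and Axin2 at 3.95% and 1.05%. Lrig1 was at 2.30% and 0.669%, Sox9 at 1.32% and 0.365%, Smoc2 at 1.32% and 0.195%, Ephb3 at 0.658% and 0.462%, and Lgr5 at 0.329% and 0.109%. Ascl2 was at 0 in both after thinning. For these 9 members the pooled share in enterocyte nuclei was at or below that in T cell nuclei, so that these shares by themselves show neither enterocyte expression nor a treatment difference.

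The UMIs of each member for each Prom1 UMI were compared between the 2 kinds of nuclei. In T cell nuclei there were 1.03 Ephb2 UMIs for each Prom1 UMI (113 and 110 UMIs), against 0.0639 in enterocyte nuclei. For Rnf43 the ratios were 1.17 and 0.120, and for Axin2 0.345 and 0.0296. All 3 ratios were higher in T cell nuclei in 7 of the 7 libraries whose T cell nuclei held a Prom1 UMI. The library left out, of the 8 with both kinds of nuclei, had none. Pooled over libraries the sparser members also had higher ratios in T cell nuclei, but in fewer libraries. This held in 6 of 7 for Ephb3, 5 for Smoc2 and Sox9, 4 for Lrig1, 3 for Lgr5 and 1 for Ascl2. The origin of the UMIs of these members in T cell nuclei was not tested.

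Whether members shared nuclei was asked within each library. Nuclei thinned to 500 UMIs were divided by the presence of a UMI of 1 member, summed per library and compared with edgeR with the library as a block. The p-values of these comparisons use a spread that edgeR estimates with information shared over genes. They do not measure the spread of a single gene between libraries alone. Lgr5 was to divide the nuclei, but at most 3 Lgr5 nuclei remained in any library where 5 were required, so Axin2, Ephb2, Rnf43 and Prom1 were used in its place. That choice was made after seeing the data.

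Nuclei with Ephb2 held little Prom1. Prom1 levels in nuclei with and without Ephb2 were 2.0 and 8.97 per 10000 in GR12, 2.22 and 7.15 in GR13, and 3.53 and 7.25 in GR15. In placebo they were 2.0 and 13.7 in GR22, 1.82 and 5.96 in GR23, and 3.85 and 11.3 in GR24. In PL8177 they were 1.18 and 5.67 in GR41, 5.68 and 13.9 in GR43, and 0 and 7.39 in GR44. Prom1 was thus lower beside Ephb2 in 9 of 9 libraries, in each of the 3 treatments. The 360 nuclei with Ephb2 held 56 Prom1 UMIs where 198 were expected from the other nuclei of their libraries, a log2 fold change of -1.80 (SE 0.24, edgeR adjusted p = 1.78e-15). In this comparison 298 of 1556 genes (19.2%) were lower and 208 (13.4%) higher, 32.5% in all, and DESeq2 called 23.6%. Over the alternatives run the value ranged from -2.49 to -1.0, with adjusted p between 1.06e-26 and 0.00129, past the threshold in each.

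**Figure D4:**
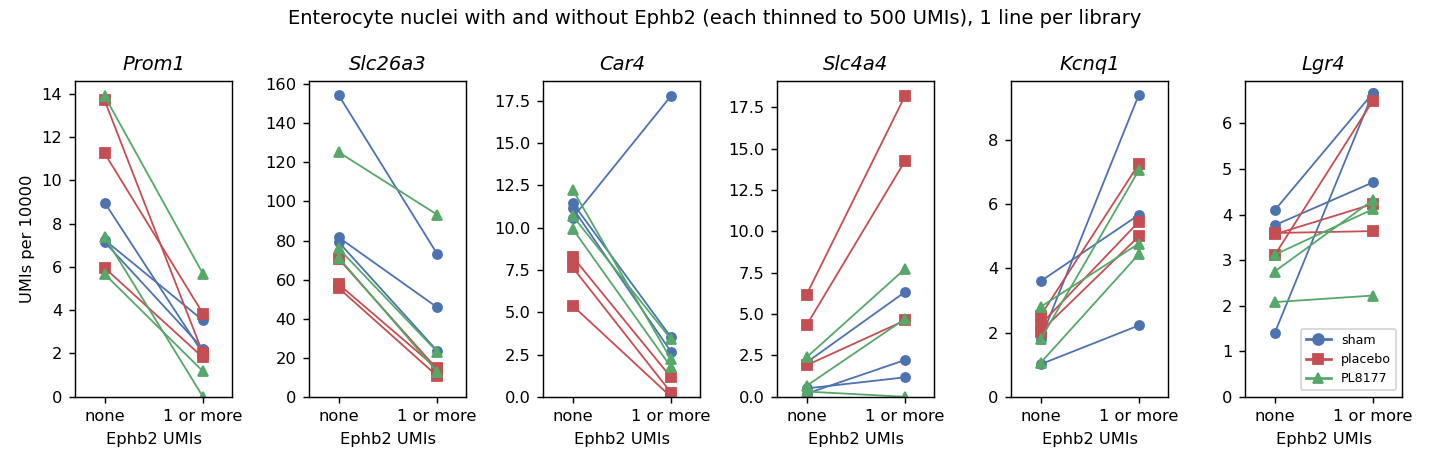
Levels (UMIs per 10000) in nuclei with and without an Ephb2 UMI, each nucleus thinned to 500 UMIs, with 1 line for each of the 9 libraries, coloured by treatment. Prom1 falls along every line, for example from 13.7 to 2.0 in GR22 and from 8.97 to 2.0 in GR12.

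Genes of the absorptive surface were lower in the same nuclei. Of the 15 surface enterocyte genes 12 were tested and 11 called lower, with a median log2 fold change of -1.10 beside -0.02 over all genes. The chloride-bicarbonate exchanger Slc26a3 was at -1.72 (SE 0.15, edgeR adjusted p = 5.93e-26) and lower in 9 of 9 libraries. Car4, a membrane carbonic anhydrase, was at -2.02 and lower in 8 of 9 libraries (not in GR13), the sodium channel subunit Scnn1a at -1.66, the water channel Aqp8 at -1.50, the guanylin gene Guca2a at -1.34, the mucin Muc13 at -1.19 and the keratin Krt20 at -0.82, all called. Of 8 general epithelial genes tested, 4 were called lower and none higher, with a median of -0.50. Several of these calls were weak, since Car1 of the surface list was not called with DESeq2, with total UMIs in place of TMM, or without any 1 of GR13, GR15, GR22, GR23, GR24 and GR43. Of the general genes Cdh1 and Cdh17 were not called with total UMIs or in the nuclei free of other markers described below, nor Cdh1 at 300 or 1000 UMIs, nor Cdh17 with DESeq2 or without GR12. Cldn7 was not called at 300 UMIs.

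Of the further crypt genes 2 of 16 were tested and 1 was called higher beside Ephb2, the potassium channel Kcnq1. It was at 1.30 (SE 0.18, edgeR adjusted p = 1.86e-09) and higher in 9 of 9 libraries. Lgr4, an R-spondin receptor related to Lgr5, was at 0.70 (SE 0.18, edgeR adjusted p = 0.00166), also higher in 9 of 9 libraries, with 93 UMIs where 58.1 were expected. Without a filter on low counts its value was -0.023, while all genes moved by a median of -0.70 under that setting, so Lgr4 stayed above the bulk of genes. Without GR22 Lgr4 was at 0.56 (edgeR adjusted p = 0.0507) and at 300 UMIs Kcnq1 was at 0.67 (edgeR adjusted p = 0.0885), neither past the threshold. The co-receptor Lrp5, at -0.68, and the Wnt transcription factor Tcf7l2, at -0.52, were called lower, but neither call held with DESeq2, with total UMIs in place of TMM, in the nuclei free of other markers described below, or without GR22 or GR24. Lrp5 was also not called at 300 UMIs or without GR12, GR13 or GR43, nor Tcf7l2 at 1000 UMIs. Rnf43 was not called, at 0.32 (SE 0.28, edgeR adjusted p = 0.408).

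The genes with the largest changes beside Ephb2 were the bicarbonate cotransporter Slc4a4 at 1.72 (higher in 8 of 9 libraries), Cadps2 at 1.60, the chloride channel Cftr at 1.59, Akr1c15 at 1.51 and Vgll4 at 1.51. The largest decreases were in Asap1 at -2.60, Optn at -2.53, Clec2e at -2.41, Abcb4 at -2.32 and Sgk1 at -2.27. Slc4a4 and Cftr take part in bicarbonate and chloride secretion by crypt epithelium, and Sgk1 is a kinase that raises sodium absorption. T cell list genes gave 26 UMIs in the nuclei with Ephb2 where 10.1 were expected, 20 of the 26 from Bcl11b, with Cd3e, Cd3d and Cd3g at 0. The values were of like size in nuclei with an epithelial UMI and none of the T cell, B cell, myeloid, fibroblast, smooth muscle or endothelial lists. In the 269 such nuclei with Ephb2, Prom1 was at -1.87 (edgeR adjusted p = 1.92e-12), Slc26a3 at -1.69, Slc4a4 at 1.98, Kcnq1 at 1.27 and Lgr4 at 0.65.

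The division by Prom1 gave the mirror pattern in a larger set, 1982 of 6781 nuclei, although it draws on the same nuclei and is no independent evidence. Ephb2 was at -1.55 (SE 0.24, edgeR adjusted p = 1.72e-07), with 49 UMIs where 150 were expected and lower in 9 of 9 libraries, in a comparison where 374 of 2987 genes (12.5%) were lower and 358 (12.0%) higher, 24.5% in all, and DESeq2 called 21.8%. Ephb2 had too few counts to be tested at 300 UMIs, among nuclei with epithelial and no other markers, and without GR22, GR24 or GR43. Rnf43 was at -0.30 (edgeR adjusted p = 0.143). Kcnq1 was at -1.10, Lgr4 at -0.56, Slc4a4 at -1.45, Akr1c15 at -1.45, Plch2 at -1.60 and Clybl at -1.36, all called lower. Lgr4 was not called at 300 or 1000 UMIs or without GR22, where it was at -0.42.

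Most surface genes were higher beside Prom1, with 7 of 13 called higher, 0 called lower and a median of 0.59 beside -0.01 over all genes. At an unadjusted edgeR p under 0.05, 11 of the 13 were higher and 2 lower. The 7 called were as follows. Car4 was at 1.11, Ceacam1 at 1.10, Aqp8 at 0.96, Guca2a at 0.93, Slc26a3 at 0.87, Muc13 at 0.82 and Scnn1a at 0.59. The largest increases were in the apolipoprotein gene Apoa1 at 2.22, AABR07031193.1 at 1.89, Sectm1b at 1.57, the tight junction gene Cldn4 at 1.56 and the oxidase gene Duox2 at 1.55. Areg at 1.30 and Anxa1 at 0.71, from the regeneration list, and the ephrin Efna1 at 1.00 were also called, as was Mrc1 at 0.85, the only myeloid list gene tested.

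**Figure D5:**
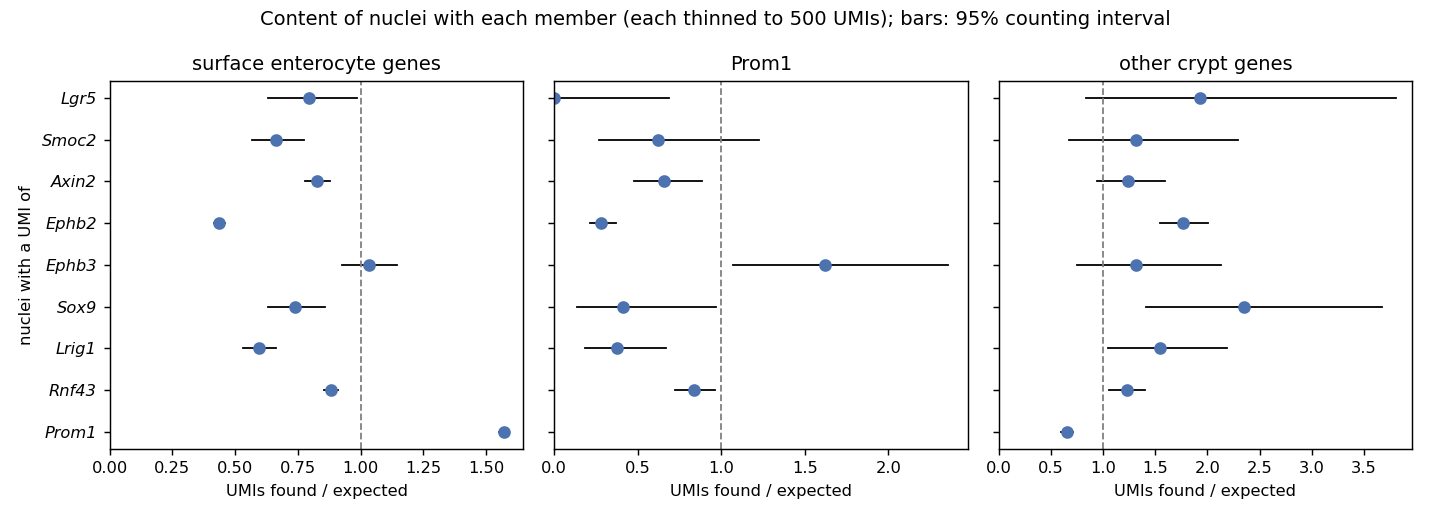
UMIs found over UMIs expected (ratio, linear axis) of marker lists and Prom1 in nuclei with a UMI of each member, thinned to 500 UMIs, with 95% counting intervals as bars. The surface list stands at 0.437 beside Ephb2 and at 1.57 beside Prom1, and near 1 beside Ephb3 (1.03).

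Fewer genes were called beside Axin2 and Rnf43. Beside Axin2 (127 of 6083 nuclei in 7 libraries) 12 of 1314 genes (0.913%) were called, all lower (0.0% higher), and no member, and DESeq2 called 0.228%. They included Fbxo32 at -2.04, Pdzk1ip1 at -2.01, Agmo at -1.53, MGC105649 at -1.49, B2m at -1.45, Atp12a at -1.11, Car4 at -1.07, March3 at -1.05, Susd6 at -0.94 and Lypd8 at -0.91. Prom1 was at -0.69 (SE 0.27, edgeR adjusted p = 0.237), and it was called lower at 300 UMIs (-1.65, edgeR adjusted p = 0.0347), at 1000 UMIs (-0.95, edgeR adjusted p = 8.51e-06) and without a filter on low counts (-1.38, edgeR adjusted p = 0.000252), with adjusted p from 8.51e-06 to 0.883 over the alternatives run. Beside Rnf43 (460 of 6781 nuclei) 6 of 1502 genes (0.399%) were called, 3 higher (0.2%) and 3 lower (0.2%), and DESeq2 called 0.2%. Slc4a4 at 1.13, Zranb2 at 0.88 and AABR07041096.1 at 0.51 were higher, Duox2 at -1.20, March3 at -0.91 and Fth1 at -0.55 lower, and Prom1 was at -0.22 (edgeR adjusted p = 0.504), called without a filter on low counts only (-0.73, edgeR adjusted p = 2.75e-06, up to 0.885 over the other alternatives). Without that filter all genes moved by medians of -0.71 beside Axin2 and -0.51 beside Rnf43. Whether the change of Prom1 beside Ephb2 differs from that beside Rnf43 or Axin2 was not tested.

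The sparse members can only be described. In nuclei thinned to 500 UMIs, surface list UMIs were 0.595 times the expected number beside Lrig1 (95% counting interval 0.533 to 0.663, 55 nuclei), 0.665 beside Smoc2 (0.568 to 0.774, 24 nuclei), 0.738 beside Sox9 (0.631 to 0.858, 22 nuclei) and 0.794 beside Lgr5 (0.631 to 0.985, 11 nuclei). Beside Ephb3 the ratio was 1.03 (0.927 to 1.15, 33 nuclei). T cell list UMIs numbered 3 where 0.324 were expected beside Lgr5 and 4 where 0.791 were expected beside Smoc2. Beside Lrig1 there was 1 where 1.47 were expected, and beside Sox9 1 where 0.738 were. Smoc2 nuclei also held 6 smooth muscle list UMIs where 1.97 were expected. The general epithelial list was at 0.679 beside Lgr5 (0.467 to 0.953). The part of such content in the surface ratios was not tested. Prom1 was below expectation beside Lrig1, with 11 UMIs where 29.3 were expected, and beside Lgr5, with 0 where 5.34 were expected. Beside Ephb3 it was above, with 27 where 16.7 were expected. No Ephb3 UMI was found in nuclei with Ephb2 where 2.0 were expected, which is within counting error. Counting intervals cover counting error only, and these differences carry no test over libraries.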

How the data were processed

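The authors made gene counts with Cell Ranger 6.0.1 on the rat genome Rnor 6.0, introns included, removed empty droplets with CellBender, filtered genes and nuclei, and assigned cell types from Seurat 4.0.3 clusters. They deposited whole UMI counts per nucleus for enterocytes and T cells. Whether later normalization touched them is not stated. The T cell file of placebo stops partway through its genes, and 15108 complete genes, all 10 members among them, were read from it. Doublets were not called. Counts were summed per library tag and tested in R 4.3.3 with edgeR 4.0.16 (TMM, filterByExpr, quasi-likelihood, 3 treatments in 1 fit), with DESeq2 1.42.0 as alternative. Standard errors were computed from the information matrix of the quasi-likelihood fit. Shares used thinning to 300 UMIs with exact Clopper-Pearson intervals and exact permutation tests. Nuclei were divided by a member after thinning to 500 UMIs, which was not possible for Lgr5. Both edgeR steps and DESeq2 were tested on simulated data. Members and lists were chosen with earlier results of these data known. Named genes were all members, called list genes or the 2 of smallest p per list, the 5 leading genes per direction with at least 50 UMIs, and the 3 genes most like Lgr5, Sox9 and Ephb2. Python 3.11.15, numpy 2.4.6, scipy 1.17.1, pandas 2.3.3 and matplotlib 3.10.9 did the rest.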

Additional observations from a re-analysis of the deposited data

How the results depend on the processing

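No paired analysis was possible because each library tag occurs in 1 treatment only and no label links libraries across treatments. No member was called in a treatment comparison under any alternative run. Of the other pathway genes, DESeq2 called Jag1, Bcl9l and Areg, and edgeR without a filter on low counts called Jag1. Counts of all genes called moved for sham against placebo to 107 (DESeq2), 51 (no filter on low counts), 6 (thinned to 300 UMIs) and 10 (without the top 2% of nuclei by UMIs), and to 0 to 8 with 1 library left out. For PL8177 against placebo they were 63 (DESeq2) and 8 (no filter), and for PL8177 against sham 4 (DESeq2), 10 (no filter) and 0 to 2 with 1 library left out. The causes were not tested.

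Directions of uncalled members turned as follows. For sham against placebo, Axin2 was 0.010 with RLE size factors, 0.20 thinned, 0.17 in nuclei with at least 500 genes and 0.094 without the top 2% of nuclei, and -0.87 to 0.30 with 1 library left out. Ephb2 was -0.82 and Pygo2 -0.15 thinned. In nuclei with at least 500 genes Smoc2 was 0.0076 and Sox9 -0.62. With 1 library left out Sox9 ran from -0.77 to 0.96, Pygo2 from -0.057 to 0.36 and Ereg from -0.42 to 1.69. For PL8177 against placebo, Rnf43 was -0.0018 (RLE), -0.013 (thinned) and -0.014 (without the top 2%), and with 1 library left out Rnf43 ran from -0.16 to 0.17, Ephb3 from -1.18 to 0.93 and Prom1 from -0.64 to 0.14. For PL8177 against sham, Smoc2 was -0.10 (DESeq2), -0.30 (at least 500 genes) and -0.33 (without the top 2%), Lrig1 -0.024 (DESeq2), -0.019 (RLE), -0.30 (at least 500 genes) and -0.043 (without the top 2%), and Ephb2 0.26 thinned. With 1 library left out Smoc2 ran from -0.16 to 0.42, Lrig1 from -0.27 to 0.26 and Prom1 from -0.11 to 0.67.

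Of the 5 members with at least 50 UMIs after thinning, those whose shares did not overlap numbered 2, 1 and 0 in the 3 comparisons. Of the 6202 genes with that many UMIs, 15.8% were lower and 6.45% higher in sham than in placebo, and 10.4% and 5.89% in PL8177. For PL8177 against sham 4.48% were lower and 7.85% higher. Without thinning 8 members had that many UMIs. The share over all genes was not taken under the settings that follow, so their counts of members have no background to be read against. With 1 library left out, 2 libraries stand against 3 and are more easily apart. For sham against placebo the number was 0 when thinned to 500 UMIs, 0 without thinning and 1 (Lrig1) for the expected share. For PL8177 against placebo it was 0 without thinning, 0 for the expected share and 1 to 2 with 1 library left out. For PL8177 against sham it was 1 (Lrig1) for the expected share and 0 to 1 with 1 library left out.

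Alternatives of the divided nuclei were chosen after seeing the data. Over genes named there, 910 values kept direction and call, 97 lost the call, 5 gained it and 4 turned. The number of genes tested can differ between settings and is not given here. Counts of genes and members called below can therefore not be compared as shares. Without a filter on low counts all genes shifted by medians of -0.71 beside Axin2, -0.70 beside Ephb2 and -0.51 beside Rnf43, thinning to 300 UMIs shifted Axin2 by -0.63, and counts under these settings carry that shift. Beside Axin2, 3 genes were called by DESeq2, 323 without filter, 55 at 300 and 65 at 1000 UMIs, and 5 to 18 with 1 library left out (5 without GR22), and Prom1 was the 1 member called without filter, 1 at 300 and 1 at 1000 UMIs. Beside Ephb2, 1420 genes were called without filter and 236 at 300 UMIs, with 2 members at 300. Rnf43 was -0.37 and Lgr4 -0.023 without filter, and Car1 0.044 at 1000 UMIs. Beside Rnf43, 3 genes were called by DESeq2, 558 without filter (with 1 member), 3 at 300 and 13 at 1000 UMIs, 16 in epithelial nuclei without other markers, and 3 to 14 with 1 library left out (3 without GR24, 14 without GR15), and AABR07041096.1 was -0.019 without filter. Beside Prom1, 1143 genes were called without filter, and members called were 0 at 300 UMIs, 0 in epithelial nuclei without other markers and 0 to 1 with 1 library left out, since Ephb2 then had too few counts.

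Depth limits the sparse members. Lgr5 and Ascl2 were tested only without a filter on low counts, and the division by Lgr5 could not be run.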

Other observations

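Sox9 nuclei held more goblet list UMIs than expected, 10 where 3.17 were expected (ratio 3.15, 95% counting interval 1.51 to 5.79, 22 nuclei), and more UMIs of the further crypt genes, 19 where 8.09 were expected (ratio 2.35, 1.41 to 3.67). Ephb3 nuclei held 8 cycling list UMIs where 2.80 were expected (ratio 2.86, 1.23 to 5.63, 33 nuclei). Both rest on a handful of nuclei and carry no test over libraries.

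Over the 9 libraries, the genes whose levels were most like those of Ephb2 were the magnesium channel Trpm6 (Pearson r = 0.958), the adhesion molecule Alcam (0.911) and Zswim5 (0.870), among 4919 genes with at least 500 UMIs. For Sox9, with 109 UMIs, they were Frg1 (0.905), Clptm1l (0.901) and Pde8b (0.880), and for Lgr5, with 30 UMIs, Tmco4 (0.899), Mtg2 (0.889) and Nudt3 (0.889). Libraries share depth and cell composition, and these are descriptions of 9 points.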
